A study of Homo sapiens with 18 samples.

Results

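Progression of a cell from G1 into S phase is set by cyclins, which switch on cyclin-dependent kinases (CDKs), and by CDK inhibitors, which hold them off. Messenger RNA counts of 10 such genes are described here in 2 human colorectal cancer lines, of 60642 gene symbols counted. They were chosen by symbol as G1 cyclin, CDK and CDK inhibitor genes: the Cip/Kip inhibitors CDKN1A, CDKN1B and CDKN1C, the INK4 inhibitors CDKN2B, CDKN2C and CDKN2D, the cyclins CCND1, CCND3 and CCNE1, and the kinase CDK6. CDKN2A, another INK4 gene, was not among the 10. The 10 were chosen with earlier results of these data known, so counts of them are descriptions and not independent evidence. All 10 symbols were in the table, and all 10 passed the filter on low counts in each fit.

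RepSox, which blocks the TGF-β receptor kinase ALK5, was set against its vehicle DMSO in SW620 and in HT-29 iZEB1. HT-29 iZEB1 is derived from HT-29, and in it doxycycline (DOX) induces ZEB1, a transcriptional repressor of epithelial genes. The 6 groups had 3 libraries each. They were SW620 with RepSox, SW620 with DMSO, HT-29 iZEB1 with DOX and RepSox, with DOX and DMSO, with RepSox alone, and with DMSO alone. The RepSox dose was 10 µM, over 24 h. That of DOX was 1 µg/ml, over 24 h in the treatment protocol but 48 h in the design text. All HT-29 groups carried the inducible gene, so DOX and ZEB1 cannot be told apart. The sources used here do not say whether the line is 1 clone or which promoter drives ZEB1. Whether replicates are separate cultures is also not given, so p-values reflect only how far these libraries vary, possibly for technical reasons.

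ZEB1 stood at 372, 385 and 376 CPM (counts scaled to library size) with DOX and DMSO, against 7.90, 7.38 and 10.4 CPM with DMSO alone. With DOX and RepSox it stood at 14.6, 15.9 and 17.4 CPM, against 5.04, 5.38 and 5.73 CPM with RepSox alone, so DOX raised it in RepSox too (2.98-fold). Library totals were 36.5 to 39.8 M counts. The epithelial genes KRT8 and KRT18, among 12 colorectal epithelial markers, were expressed in both lines, and 7 of 12 reached 1 CPM in SW620 and 9 of 12 in HT-29 iZEB1, both in DMSO without DOX. CDX1 was at 0 in SW620. The summed level of this list was 4773 to 5267 CPM with DOX and DMSO, against 9191 to 10386 CPM with DMSO alone. It was 10461 to 11350.5 CPM with DOX and RepSox, and 9209 to 9836 CPM in SW620 with RepSox, against 6242 to 6679 CPM in SW620 with DMSO. KRT8 was the highest gene of the list in each group and weighs most in the sum. By gene, 5 of the 12 were lower and 2 higher with DOX and RepSox than with DMSO alone, at an adjusted p below 0.05 (median log2 -0.28, with 26.2% of all genes called). With RepSox alone 4 were lower and 0 higher than with DMSO alone (25.3% of all genes called). The part of these shifts in the results was not tested. The share of mitochondrially encoded counts was 2.51% to 4.16% with RepSox alone, below the 4.31% to 5.30% with DMSO alone in every library. It was 3.02% to 3.85% with DOX and RepSox, against 2.98% to 5.71% with DOX and DMSO, where replicate 2 was the lowest. In SW620 it was 4.91% to 5.81% with RepSox, against 4.68% to 5.17% with DMSO. Its part in the results was not tested.

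The D-type cyclins pair with CDK4 and CDK6 early in G1, and cyclin E, encoded by CCNE1, pairs with CDK2 later, and both kinases phosphorylate the retinoblastoma protein to release E2F factors. INK4 proteins bind CDK4 and CDK6 and displace the D cyclins. Cip/Kip proteins bind cyclin-CDK complexes and block CDK2 above all. In epithelial cells TGF-β is known to arrest growth in G1 by raising CDKN2B and CDKN1A and lowering MYC.

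Promoter windows from RefSeq (build GRCh38.p14, 250 bases before to 50 bases after a start) were matched for 8 of the 10 genes, and CCND1 and CDKN1C had none. They were searched on both strands for the ZEB E-box letters CACCTG, the SMAD-binding letters CAGAC and the E2F letters, with TTCGCGC in one form, TTGGCGC in another form and TTCCCGC in a further form, with no overlaps between matches in the sequences shown. The E-box letters stood only in the first of 3 windows of CCND3. This gene was lower with DOX in DMSO and also with RepSox alone, both set against the same libraries with DMSO alone. The E2F letters stood only in the second of 3 CDKN2C windows, with matches that begin 131 and 34 bases before the start. The SMAD letters stood 3 times in the first CDKN2C window and once in the third, and in 1 window each of CDKN2D and CDK6. Of 35116 windows of this length, 20.6% held the E-box letters, 45.3% the SMAD letters and 11% the E2F letters. The windows of CDKN1A, CDKN1B, CDKN2B and CCNE1 held none of the 3. The first and second CDKN2C windows, the first CCND3 window and that of CDKN2B are shown because RepSox lowered CDKN2C in both lines and CDKN2B in HT-29 iZEB1, and DOX lowered CCND3. Capitals mark matched letters, and matches are descriptions of sequence, not binding sites.
CDKN2C first window, chr1:50960495-50960794, plus strand: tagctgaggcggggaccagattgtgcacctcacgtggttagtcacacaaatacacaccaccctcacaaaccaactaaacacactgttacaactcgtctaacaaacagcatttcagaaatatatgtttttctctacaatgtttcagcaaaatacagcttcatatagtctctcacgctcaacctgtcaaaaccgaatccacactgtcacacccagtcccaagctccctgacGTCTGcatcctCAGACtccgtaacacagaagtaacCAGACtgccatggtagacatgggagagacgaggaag
CDKN2C second window, chr1:50968456-50968755, plus strand: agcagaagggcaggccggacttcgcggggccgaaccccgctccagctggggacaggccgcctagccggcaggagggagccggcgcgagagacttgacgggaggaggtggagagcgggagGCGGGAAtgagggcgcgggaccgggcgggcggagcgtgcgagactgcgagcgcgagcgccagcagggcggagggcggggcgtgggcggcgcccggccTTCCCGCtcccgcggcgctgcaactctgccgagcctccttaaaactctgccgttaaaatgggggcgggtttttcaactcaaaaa
CCND3 window with the E-box letters, chr6:42048639-42048938, minus strand: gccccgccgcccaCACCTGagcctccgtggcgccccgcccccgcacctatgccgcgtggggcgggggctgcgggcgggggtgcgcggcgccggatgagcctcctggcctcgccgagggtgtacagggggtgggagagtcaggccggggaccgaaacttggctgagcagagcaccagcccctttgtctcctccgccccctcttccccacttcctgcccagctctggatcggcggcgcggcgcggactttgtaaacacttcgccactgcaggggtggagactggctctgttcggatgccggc
CDKN2B window, chr9:22009256-22009555, minus strand: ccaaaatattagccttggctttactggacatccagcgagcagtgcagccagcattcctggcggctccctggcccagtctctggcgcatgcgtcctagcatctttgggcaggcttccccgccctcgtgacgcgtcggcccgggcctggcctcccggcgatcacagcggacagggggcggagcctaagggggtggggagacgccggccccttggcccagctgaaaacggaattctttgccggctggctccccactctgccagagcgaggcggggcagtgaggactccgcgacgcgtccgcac

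Levels of the genes relative to each other were compared as CPM per kilobase of exon, with lengths from GENCODE 29 (GRCh38). In HT-29 iZEB1 with DMSO alone CCND1 was the highest at 32.3 ± 0.62 CPM per kb (SD, n = 3), followed by CDKN1B at 17.9 ± 1.0 CPM per kb. CCND3 (13.5 ± 0.99), CCNE1 (12.2 ± 0.20) and CDK6 (12 ± 1.2 CPM per kb) came next, and the SD range of CDK6 overlapped those of both others. The INK4 genes among the 10 were lower, with CDKN2D at 6.74 ± 0.76, CDKN2B at 3.37 ± 0.17 and CDKN2C at 3.15 ± 0.24 CPM per kb, the last pair within their SDs. CDKN2A, an INK4 gene outside the 10, was more abundant in CPM not scaled to exon length. It had 78.7 CPM, against 10.1 CPM for CDKN2D, 13.7 CPM for CDKN2B and 10.4 CPM for CDKN2C. CDKN1C (2.03 ± 0.20) and CDKN1A (1.67 ± 0.17 CPM per kb) were the lowest. CDKN1A was last of the 10 in all 6 groups, with 27 to 283 counts in a library, and its fold changes had the widest standard errors. In SW620 with DMSO CCND1 led at 96.5 ± 2.7 CPM per kb, CDK6 followed at 20.9 ± 2.3, and CCNE1 was eighth of the 10 at 2.76 ± 0.34 CPM per kb. With DOX and DMSO the order at the top differed, with CDKN1B at 22.6 ± 1.4 and CCND1 at 21.9 ± 0.64 CPM per kb, within their SDs.

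**Figure D1:**
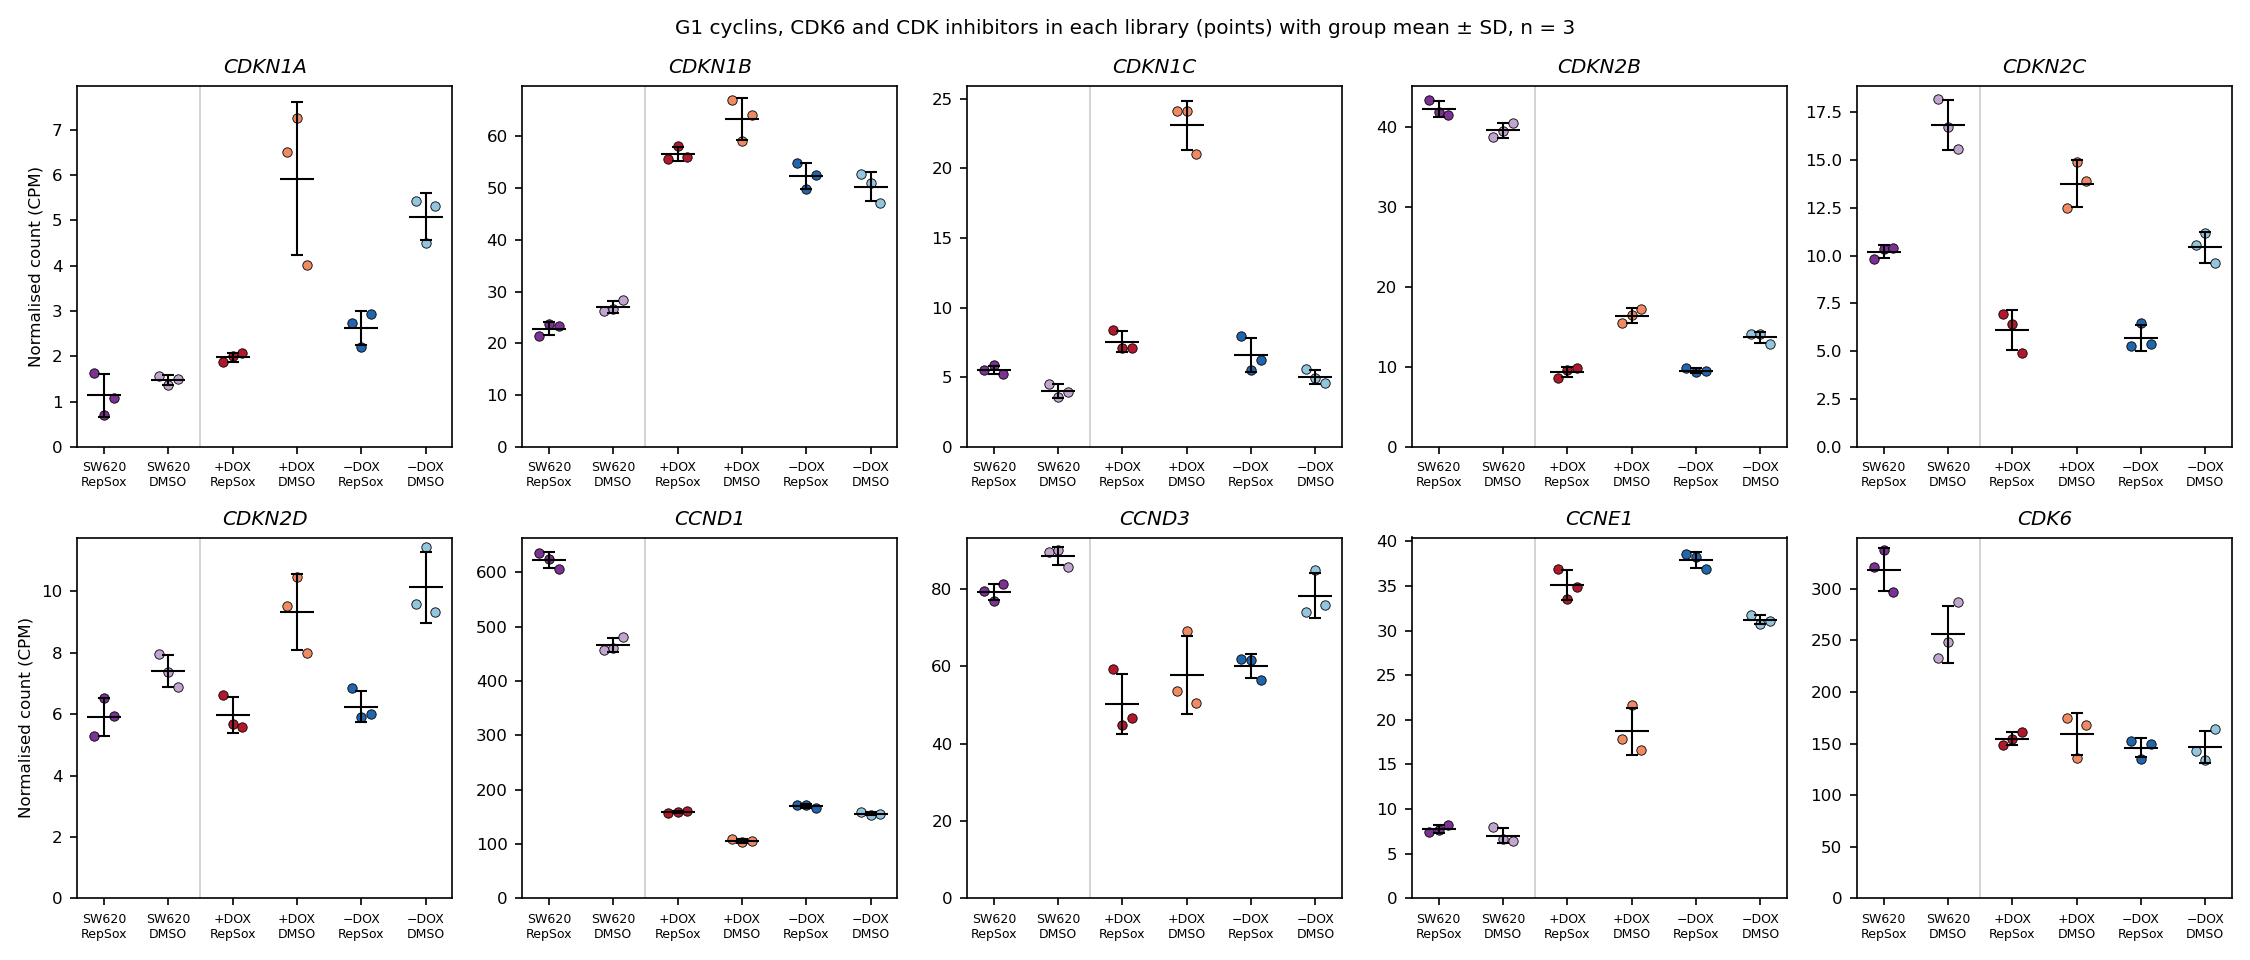
Normalised counts (CPM, linear axis from 0) of each gene in every library, 3 points a group, with the group mean and SD. CDKN1C is high in the group with DOX and DMSO, at 21.0 to 24.1 CPM, and below 9 CPM in each library of the 5 other groups, while CCND1 and CDKN2B are highest in SW620.

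DOX in DMSO raised 4 CDK inhibitor genes among the 10 and lowered 3 cyclin genes. Of the 10 genes 4 were higher and 3 lower at an adjusted p below 0.05 (edgeR's quasi-likelihood test, Benjamini-Hochberg over 16978 genes), in a comparison in which 40.4% of all genes were called, 19.2% as higher and 21.1% as lower. Of the calls 47.6% were higher, and 59.5% with libraries scaled by their totals. Groups that did not overlap were seen in 23.4% of all genes as higher and 25.1% as lower. The largest of these changes was in CDKN1C, which encodes the Cip/Kip inhibitor p57. In bulk RNA, fewer cells with a transcript and less of it per cell cannot be told apart, here and in each result that follows.

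CDKN1C (ENSG00000129757, chromosome 11, 2883213 to 2885773, minus strand, protein-coding) had 24.1, 24.1 and 21.0 CPM with DOX and DMSO, against 5.55, 4.95 and 4.59 CPM with DMSO alone. Every library with DOX lay above every library without it, 4.6-fold higher (log2 fold change 2.2, SE 0.12, adjusted p = 8.18e-11). CDKN1B, which encodes p27 and was already abundant, had 67.0, 59.1 and 64.1 CPM with DOX and DMSO, against 52.7, 50.9 and 47.2 CPM with DMSO alone (1.27-fold higher, log2 0.34, SE 0.068, adjusted p = 0.000506). CDKN1A, which encodes p21, had 6.50, 7.26 and 4.02 CPM with DOX and DMSO, against 5.44, 4.5 and 5.32 CPM with DMSO alone. Its groups overlapped through replicate 3 with DOX, and the difference did not pass (log2 0.22, SE 0.18, adjusted p = 0.338, and 0.0275 without that library, log2 0.44).

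Of the INK4 genes, CDKN2C (p18) rose 1.32-fold, to 12.5, 14.9 and 13.9 CPM with DOX and DMSO, against 10.5, 11.2 and 9.60 CPM with DMSO alone (log2 0.40, SE 0.12, adjusted p = 0.0108, and 0.0543 without replicate 3 of DMSO alone). CDKN2B (p15) rose 1.20-fold, to 15.5, 16.4 and 17.3 CPM, against 14.1, 14.1 and 12.9 CPM (log2 0.27, SE 0.085, adjusted p = 0.0176). The groups of both genes did not overlap, but the CDKN2B call was lost without replicate 3 of DMSO alone (0.0788), without replicate 3 of DOX and DMSO (0.0809) and with no filter on low counts (0.0687). CDKN2D (p19) had 9.52, 10.5 and 8.01 CPM with DOX and DMSO, against 9.60, 11.5 and 9.35 CPM with DMSO alone, groups that overlapped (log2 -0.11, SE 0.12, adjusted p = 0.476).

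The cyclin genes went the other way. CCNE1, cyclin E1, fell to 17.9, 21.6 and 16.6 CPM with DOX and DMSO, against 31.8, 30.8 and 31.1 CPM with DMSO alone (1.66-fold lower, log2 -0.73, SE 0.086, adjusted p = 1.46e-06). CCND1, cyclin D1, fell to 109, 103 and 105 CPM, against 159, 153 and 156 CPM (1.47-fold lower, log2 -0.56, SE 0.054, adjusted p = 1.21e-07). In both genes each library with DOX lay below each library without it. CCND3, cyclin D3, had 53.5, 69.1 and 50.4 CPM with DOX and DMSO, against 74.1, 84.8 and 75.9 CPM with DMSO alone (1.35-fold lower, log2 -0.44, SE 0.11, adjusted p = 0.0036), in groups that did not overlap. CDK6 had 174, 136 and 167 CPM with DOX and DMSO, against 142, 134 and 164 CPM with DMSO alone, in groups that overlapped (log2 0.12, SE 0.087, adjusted p = 0.281, and 0.0238 without replicate 2 of DOX and DMSO, log2 0.22). Exons of LTO1 lie opposite 10.3% of CCND1's exon bases, and exons of DINOL opposite 4.79% of CDKN1A's. The strand setting of the counting is not given, so reads of each pair cannot be told apart there.

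Genes around this core were read from lists of the pathway, in the same comparison, in which 40.4% of all genes were called. All 22 tested E2F target genes of S phase entry were lower with DOX (median log2 -0.82, against 0.00 over all genes tested), among them the replication licensing gene CDC6 at 52.0 ± 2.4 CPM with DOX and DMSO and 116 ± 3.7 CPM with DMSO alone (SD, n = 3 each). Of 17 tested RB and E2F genes 8 were lower and 2 higher (median -0.10), with E2F1 1.95-fold lower. A list of other G1 cyclins, CDKs and CDK-activating genes also held the CDK inhibitor gene CDKN2A. Of its 11 tested genes 6 were lower and none higher (median -0.21), led by CDC25A, the phosphatase that activates CDK2, which was 2.09-fold lower. CDKN2A was thus not called as higher, unlike CDKN2B and CDKN2C. Among 28 tested regulators of G1 gene transcription 9 were higher and 8 lower (median 0.08). MXD4, a MAX partner that opposes MYC, was 2.23-fold higher, and MYC 1.69-fold lower. Of 25 p53 target genes 14 were higher and 3 lower (median 0.27), with BTG2, an antiproliferative gene, 2.97-fold higher. These lists were drawn up with earlier results known, so the counts describe them and are not independent evidence of direction.

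**Figure D2:**
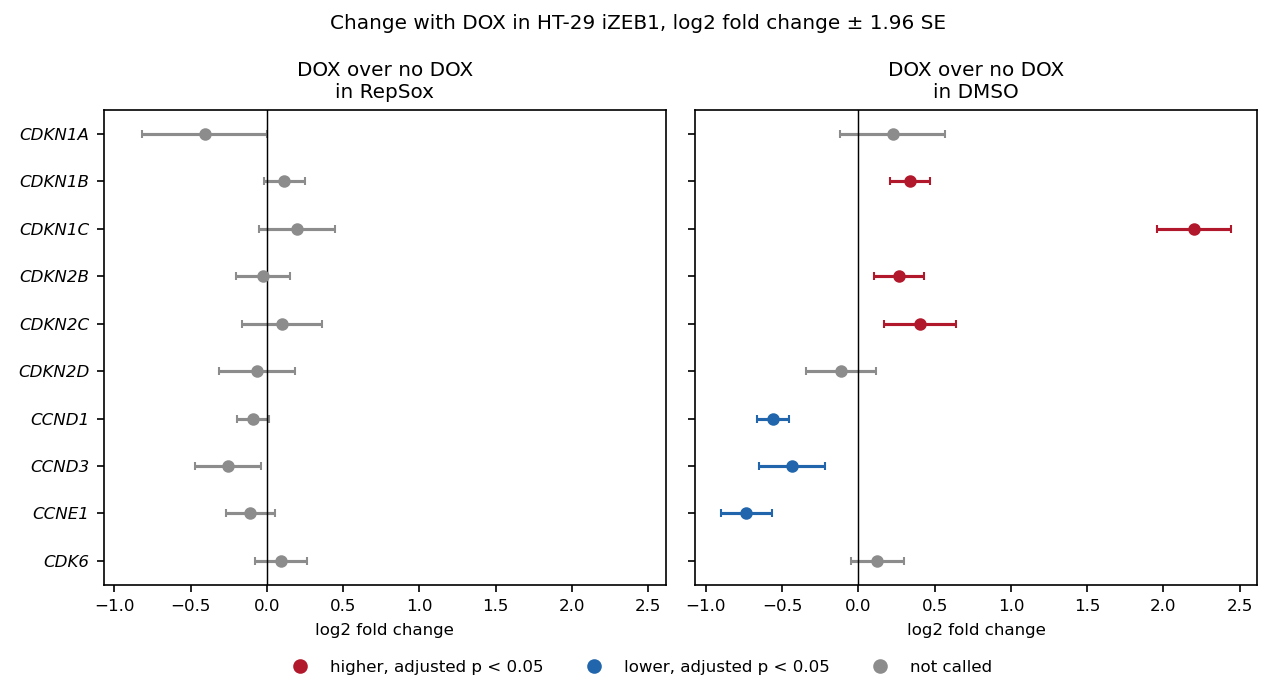
log2 fold change of each gene with DOX over no DOX in HT-29 iZEB1, in RepSox (left) and in DMSO (right), with bars for the 95% interval and colours for the call at an adjusted p of 0.05. In RepSox none of the 10 genes is called, and in DMSO CDKN1C stands at 2.2.

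In RepSox the same inducer left the 10 genes without a call. With DOX and RepSox against RepSox alone, edgeR called 0 of the 10 (0.477% of all genes were called, 0.0942% as higher and 0.383% as lower), DESeq2 also called 0, and 1 of the 10, CCND3, had an unadjusted p below 0.05. Over all genes 2388 had an unadjusted p below 0.05. The count of called genes, 81, was 1670 without replicate 1 of DOX and RepSox and 27 to 43 without any other library. Groups that did not overlap were seen in 7.82% of all genes as higher and 8.83% as lower.

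CDKN1C had 8.41, 7.10 and 7.12 CPM with DOX and RepSox, against 7.94, 5.55 and 6.25 CPM with RepSox alone, and its groups overlapped. Its log2 change of 0.20 (SE 0.13, adjusted p = 0.489) had a 95% interval of -0.05 to 0.45, which lies below the 2.2 seen in DMSO. CCNE1 had 36.9, 33.5 and 34.8 CPM with DOX and RepSox, against 38.6, 38.2 and 36.9 CPM with RepSox alone (log2 -0.11, 95% interval -0.27 to 0.05). The other 8 genes had log2 changes of -0.41 (CDKN1A) to 0.11 (CDKN1B). Groups stood apart for CDKN1A, CDKN1B and CCND1, without a call. ZEB1 itself was 16 ± 1.4 CPM with DOX and RepSox and 378 ± 7.0 CPM with DOX and DMSO (SD, n = 3 each), and the part of its level in these results was not tested. CCND3 was called in 2 alternatives, with no filter (adjusted p = 0.0489) and without replicate 1 of DOX and RepSox (0.0248, log2 -0.39).

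Whether the change with DOX differed between RepSox and DMSO was tested as an interaction. It was called for 3 of the 10 genes, 1 lower and 2 higher, where 22.6% of all genes were called, 9.61% as lower and 13% as higher. Of the calls 57.4% were higher, and 47.0% with libraries scaled by their totals. ZEB1 was at 16 CPM with DOX and RepSox, against 378 CPM with DOX and DMSO. The part of ZEB1 in the interaction was not tested. The change of CDKN1C with DOX was lower in RepSox by 2.0 on the log2 scale (interaction log2 -2.0, SE 0.18, adjusted p = 1.51e-07). Those of CCNE1 (interaction log2 0.63, SE 0.12, adjusted p = 0.000783) and CCND1 (0.46, SE 0.075, adjusted p = 0.000173) were higher in RepSox. Of the 22 E2F target genes of S phase entry the interaction was higher in 20 and lower in none (median 0.72, against 0.01 over all genes). The 3 calls among the G1 genes were kept in each of 12 fits that left out 1 library. CDKN1A (-0.63, SE 0.27, adjusted p = 0.107), CDKN1B (-0.23, SE 0.096, 0.102) and CDKN2B (-0.29, SE 0.12, 0.105) did not pass. Neither did CDKN2C (-0.31, adjusted p = 0.243), CCND3 (0.18, 0.453), CDKN2D (0.05, 0.878) and CDK6 (-0.03, 0.881). CDKN1A was called without replicate 3 of DOX and DMSO (0.00958). CDKN1B was called without replicate 2 of that group (0.0396) and with libraries scaled by their totals (0.0481).

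With DOX present, RepSox lowered all 6 CDK inhibitor genes among the 10 and raised 2 cyclin genes. Of the 10 genes 6 were lower and 2 higher, where 52.2% of all genes were called, 25.5% as lower and 26.8% as higher. Groups that did not overlap were seen in 27% of all genes as lower and 28.4% as higher. ZEB1 was at 16 CPM with DOX and RepSox, against 378 CPM with DOX and DMSO. RepSox and the lower ZEB1 level therefore cannot be told apart in this comparison. CDKN1C had 8.41, 7.10 and 7.12 CPM with DOX and RepSox, against 24.1, 24.1 and 21.0 CPM with DOX and DMSO (3.08-fold lower, log2 -1.62, SE 0.12, adjusted p = 2.07e-09). CDKN1A had 1.86, 2.0 and 2.06 CPM with DOX and RepSox, against 6.50, 7.26 and 4.02 CPM with DOX and DMSO (3.01-fold lower, log2 -1.59, SE 0.19, adjusted p = 1.44e-06). In both genes the groups stood well apart.

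The INK4 genes CDKN2B, CDKN2C and CDKN2D fell as well. CDKN2C had 6.94, 6.43 and 4.92 CPM with DOX and RepSox, against 12.5, 14.9 and 13.9 CPM with DOX and DMSO (2.28-fold lower, log2 -1.19, SE 0.12, adjusted p = 2.31e-07). CDKN2B had 8.64, 9.64 and 9.80 CPM, against 15.5, 16.4 and 17.3 CPM (1.76-fold lower, log2 -0.82, SE 0.087, adjusted p = 2.72e-07), and CDKN2D 6.63, 5.67 and 5.59 CPM, against 9.52, 10.5 and 8.01 CPM (1.57-fold lower, log2 -0.66, SE 0.12, adjusted p = 0.000195). Each library with RepSox was below each library with DMSO in all 3. CDKN1B was 1.13-fold lower (log2 -0.17, SE 0.067, adjusted p = 0.0384). Its call is weak, since it was lost with no filter (0.112) and in 5 of 6 fits that left out 1 library (0.0592 to 0.154), being kept only without replicate 2 of DOX and DMSO (0.0117).

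CCNE1 had 36.9, 33.5 and 34.8 CPM with DOX and RepSox, against 17.9, 21.6 and 16.6 CPM with DOX and DMSO (1.86-fold higher, log2 0.90, SE 0.085, adjusted p = 6.36e-08). CCND1 had 157, 160 and 161 CPM, against 109, 103 and 105 CPM (1.5-fold higher, log2 0.58, SE 0.054, adjusted p = 4.19e-08). CCND3 did not follow them, with 59.2, 44.7 and 46.7 CPM with DOX and RepSox, against 53.5, 69.1 and 50.4 CPM with DOX and DMSO, groups that overlapped (log2 -0.21, SE 0.11, adjusted p = 0.119). It was called as lower with libraries scaled by their totals (0.0381), with no filter (0.0371) and without replicate 3 of DOX and DMSO (0.0432) or replicate 1 of DOX and RepSox (0.0090). The log2 change of CDK6 was -0.05 (SE 0.087, adjusted p = 0.645).

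Around them, 21 of 22 E2F target genes were higher with RepSox in the presence of DOX and none lower (median log2 0.94, against -0.01 over all genes), with CDC6 at 127 ± 4.7 CPM with DOX and RepSox and 52.0 ± 2.4 CPM with DOX and DMSO (SD, n = 3 each). CDC25A rose 2.23-fold and E2F1 1.81-fold, in lists with 7 higher and 1 lower of 11 and with 9 higher and 2 lower of 17. Over all genes 52.2% were called here, 26.8% as higher and 25.5% as lower. MYC had 375 ± 2.0 CPM with DOX and RepSox and 123 ± 11 CPM with DOX and DMSO, 3.02-fold higher, in a regulator list with 6 higher and 14 lower of 28. Of the p53 target genes 2 were higher and 16 lower of 25 (median -0.37), led by TP53INP1, a stress-induced gene that was 13.9-fold lower. The libraries with DOX and DMSO enter this comparison and that of DOX in DMSO with opposite signs, so that the opposite directions in the pair are not independent of each other.

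Without DOX, RepSox lowered 4 of the 6 CDK inhibitor genes among the 10. Of the 10 genes 5 were lower and 2 higher, where 25.3% of all genes were called, 12.8% as lower and 12.5% as higher. Groups that did not overlap were seen in 21.3% of all genes as lower and 22.4% as higher. CDKN1A had 2.73, 2.21 and 2.94 CPM with RepSox alone, against 5.44, 4.5 and 5.32 CPM with DMSO alone (1.94-fold lower, log2 -0.96, SE 0.19, adjusted p = 0.00109). CDKN2C had 5.27, 6.50 and 5.35 CPM, against 10.5, 11.2 and 9.60 CPM (1.84-fold lower, log2 -0.88, SE 0.13, adjusted p = 5.95e-05). CDKN2D had 6.84, 5.90 and 6.01 CPM, against 9.60, 11.5 and 9.35 CPM (1.63-fold lower, log2 -0.70, SE 0.12, adjusted p = 0.000349). The groups of these 3 genes did not overlap, and neither did those of CDKN2B, at 9.83, 9.32 and 9.46 CPM with RepSox alone, against 14.1, 14.1 and 12.9 CPM with DMSO alone (1.44-fold lower, log2 -0.53, SE 0.088, adjusted p = 0.000229).

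CDKN1C was not lowered here: it had 7.94, 5.55 and 6.25 CPM with RepSox alone, against 5.55, 4.95 and 4.59 CPM with DMSO alone (1.30-fold higher, log2 0.38, SE 0.13, adjusted p = 0.0430). The 2 groups met at 5.55 CPM, and the call was lost in 4 of 6 fits that left out 1 library (0.0608 to 0.270), being kept without replicate 1 of DMSO alone or replicate 2 of RepSox alone. The log2 change of CDKN1B was 0.05 (SE 0.068, 95% interval -0.08 to 0.19, adjusted p = 0.633). CCNE1 had 38.6, 38.2 and 36.9 CPM with RepSox alone, against 31.8, 30.8 and 31.1 CPM with DMSO alone (1.21-fold higher, log2 0.27, SE 0.083, adjusted p = 0.0222). Its groups did not overlap, but its call was kept in 1 of 6 such fits, the one without replicate 3 of RepSox alone, with adjusted p from 0.0410 to 0.0752 over the 6. CCND3 was 1.31-fold lower (log2 -0.39, SE 0.11, adjusted p = 0.0129), and its call was lost without replicate 2 of DMSO alone (0.0667) or replicate 3 of RepSox alone (0.0644). CCND1 (log2 0.12, SE 0.053, adjusted p = 0.118) and CDK6 (log2 -0.02, SE 0.088, adjusted p = 0.914) did not pass. Without replicate 2 of DMSO alone 4 of the 10 genes were called in place of 7.

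Among the genes around them, of the 22 E2F target genes 7 were higher and 1 lower (median log2 0.15, against -0.01 over all genes), the lower one being the ribonucleotide reductase gene RRM2 (1.37-fold). Over all genes 25.3% were called, 12.5% as higher and 12.8% as lower. Of the 28 regulators 3 were higher and 10 lower, with MYC 1.92-fold higher and the immediate-early factor EGR1 3.70-fold lower. Of the 25 p53 target genes 3 were higher and 9 lower (median -0.08), with TP53INP1 2.59-fold lower. BTG2, higher with DOX in DMSO, was 1.72-fold higher here too, against most called genes of its list. Both comparisons are set against the same libraries with DMSO alone, so the shared direction is not independent. CCNE2, which encodes cyclin E2, was 1.60-fold lower in a list with 4 higher and 1 lower of 11. CDKN2A, an INK4 gene in that list, went the other way from CDKN2B, CDKN2C and CDKN2D. It had 97.7 ± 5.8 CPM with RepSox alone and 78.7 ± 8.0 CPM with DMSO alone (SD, n = 3 each), 1.23-fold higher (log2 0.30, adjusted p = 0.0310).

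Set against DMSO alone, cells with both DOX and RepSox had lower levels of 4 CDK inhibitor genes and of CCND3, while CCND1 and CCNE1 did not pass the test. CCND1 had 157, 160 and 161 CPM with DOX and RepSox, against 159, 153 and 156 CPM with DMSO alone (log2 0.02, 95% interval -0.08 to 0.13), and CCNE1 a log2 change of 0.16 (SE 0.084, adjusted p = 0.166). CDKN1B (log2 0.17, SE 0.068, adjusted p = 0.0794) and CDK6 (log2 0.07, SE 0.088, adjusted p = 0.593) did not pass either. Of the 10 genes 5 were lower and 1 higher, where 26.2% of all genes were called, 13.6% as lower and 12.6% as higher. Over all genes, groups did not overlap in 19.4% as lower and 19.5% as higher. CDKN1A was 2.58-fold lower (log2 -1.37, SE 0.20, adjusted p = 4.63e-05), CDKN2C 1.72-fold, CDKN2D 1.70-fold, CCND3 1.56-fold and CDKN2B 1.47-fold lower (adjusted p from 0.000132 to 0.000253 for these 4). CDKN1C was 1.49-fold higher (log2 0.58, SE 0.13, adjusted p = 0.00304), with 8.41, 7.10 and 7.12 CPM with DOX and RepSox, against 5.55, 4.95 and 4.59 CPM with DMSO alone.

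**Figure D3:**
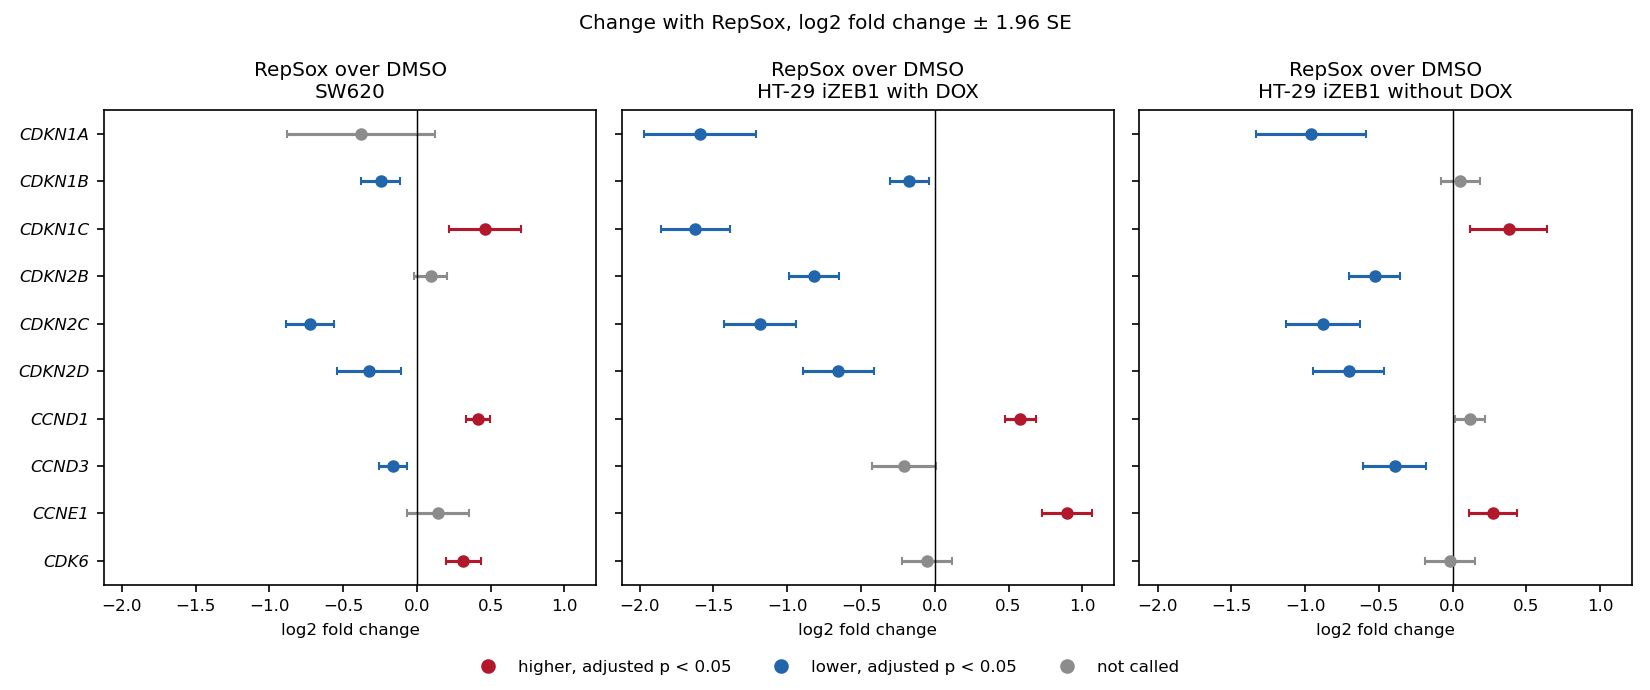
log2 fold change of each gene with RepSox over DMSO, in SW620, in HT-29 iZEB1 with DOX and in HT-29 iZEB1 without DOX, with bars for the 95% interval and colours for the call at an adjusted p of 0.05. CDKN2C is lower in all 3 panels (log2 -0.72, -1.19 and -0.88), and CDKN1C is lower with DOX (log2 -1.62) but higher in both other panels.

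In SW620, RepSox lowered CDKN2C and raised CCND1, CDK6 and CDKN1C. Of the 10 genes 4 were lower and 3 higher, where 19.5% of 17147 genes were called, 9.24% as lower and 10.2% as higher. Of the calls 52.5% were higher, and 39.5% with libraries scaled by their totals. Without regard to the test, groups stood apart in 16.8% of all genes as lower and 17.1% as higher. CDKN2C had 9.82, 10.4 and 10.4 CPM with RepSox, against 18.2, 16.8 and 15.6 CPM with DMSO (1.65-fold lower, log2 -0.72, SE 0.083, adjusted p = 5.02e-07). CCND1 had 637, 624 and 606 CPM with RepSox, against 456, 461 and 481 CPM with DMSO (1.33-fold higher, log2 0.42, SE 0.042, adjusted p = 5.50e-08). CDK6 had 321, 338 and 297 CPM, against 233, 248 and 287 CPM (1.24-fold higher, log2 0.32, SE 0.060, adjusted p = 0.000454). Each library with RepSox lay on 1 side of all libraries with DMSO in these 3 genes, with the narrowest relative gap in CDK6.

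CDKN1C rose to 5.49, 5.85 and 5.21 CPM with RepSox, against 4.52, 3.57 and 3.92 CPM with DMSO (1.38-fold, log2 0.46, SE 0.12, adjusted p = 0.0096, and 0.0617 and 0.0555 without replicate 2 of DMSO or of RepSox). CDKN1B had 21.5, 23.7 and 23.3 CPM, against 26.2, 26.6 and 28.4 CPM (1.19-fold lower, log2 -0.25, SE 0.068, adjusted p = 0.0108, and 0.0844 without replicate 1 of RepSox). CDKN2D (1.25-fold lower, log2 -0.33, SE 0.11, adjusted p = 0.0393) and CCND3 (1.12-fold lower, log2 -0.16, SE 0.048, adjusted p = 0.0200) were called narrowly. Their calls were each lost in 4 of 6 fits that left out 1 library, in the fit to all 18 libraries (0.0959 and 0.346) and with the replicate number as a block (0.0530 and 0.0535). The CDKN2D call was also lost with DESeq2 (0.0594). CDKN2D was called without replicate 3 of DMSO or replicate 2 of RepSox, and CCND3 without replicate 3 of DMSO or of RepSox. CDKN2B, at 43.4, 41.8 and 41.4 CPM with RepSox, against 38.7, 39.5 and 40.5 CPM with DMSO, did not pass (log2 0.09, 95% interval -0.02 to 0.20, adjusted p = 0.273). CDKN1A had 1.63, 0.692 and 1.08 CPM with RepSox, against 1.56, 1.36 and 1.51 CPM with DMSO, groups that overlapped (log2 -0.38, SE 0.26, adjusted p = 0.339). CCNE1 stood 0.14 higher on the log2 scale, which was not called (SE 0.11, adjusted p = 0.399). Without replicate 2 of DMSO, or without replicate 1 of RepSox, 4 of the 10 genes were called in place of 7.

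In the surrounding lists, of the 22 E2F target genes 3 were higher and 2 lower (median log2 -0.01, as over all genes), and of the 17 RB and E2F genes 1 was higher and 2 lower. Over all genes 19.5% were called, and the counts of both lists were near that share. Among 30 tested regulators 8 were higher and 7 lower, with EGR1 3.12-fold lower and the Notch target HES1 1.86-fold higher. Of the 25 p53 target genes 5 were higher and 3 lower, with GADD45A, a growth arrest gene, 1.53-fold higher.

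**Figure D4:**
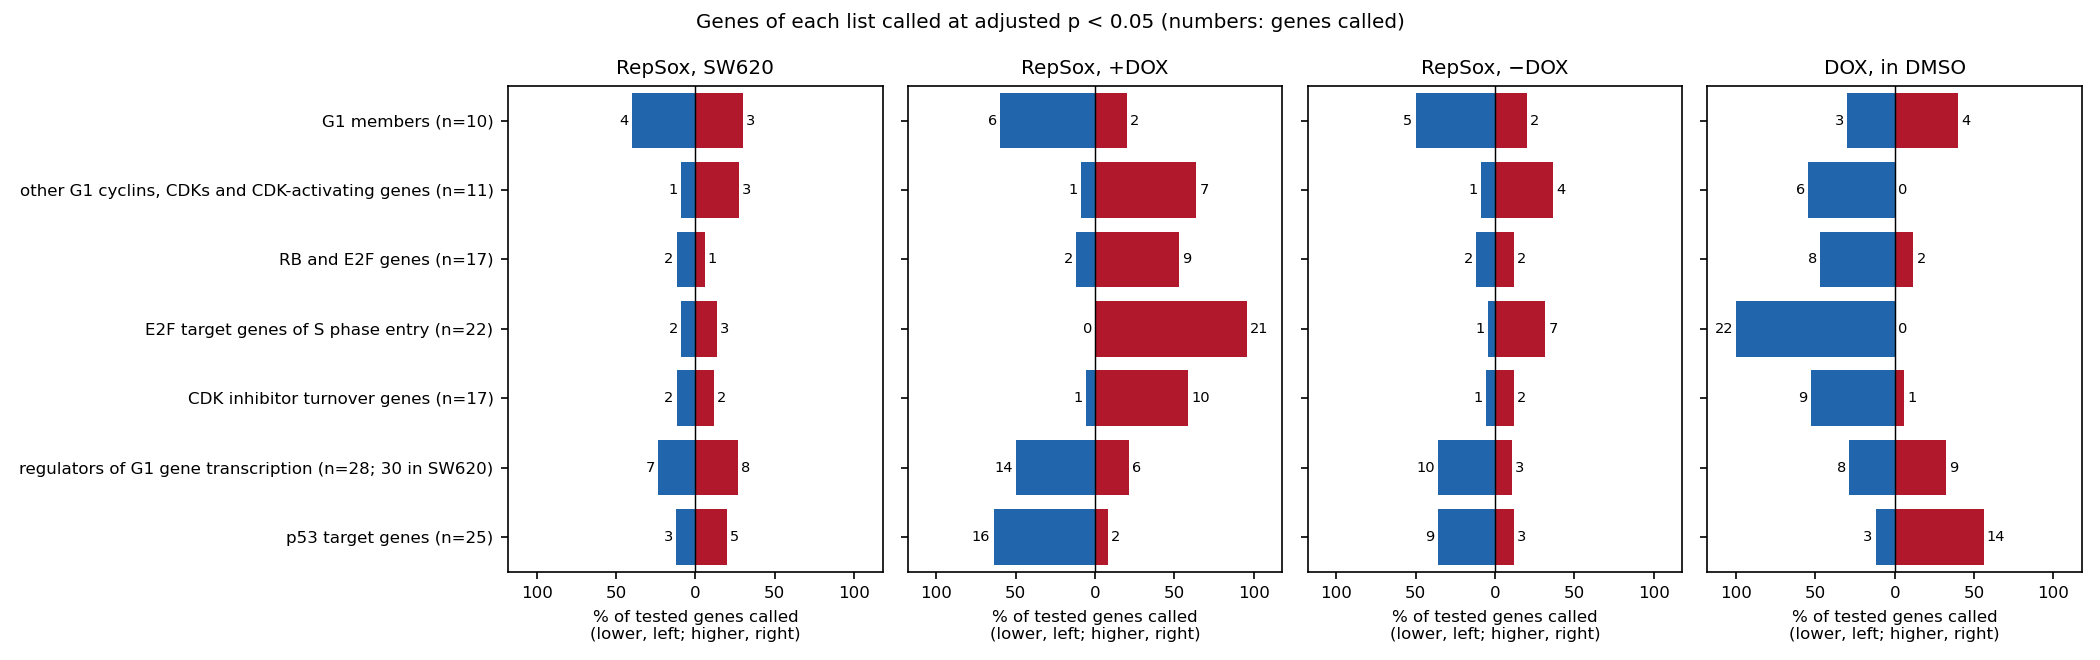
Share of tested genes in each list that were called lower (left, blue) or higher (right, red) at an adjusted p of 0.05 with RepSox in SW620, with RepSox in HT-29 iZEB1 with and without DOX, and with DOX in DMSO, with the number of genes beside each bar. The E2F target genes are called lower in 22 of 22 with DOX in DMSO and higher in 21 of 22 with RepSox in the presence of DOX, and in 5 of 22 in either direction in SW620. The list of other G1 cyclins, CDKs and CDK-activating genes also holds the CDK inhibitor gene CDKN2A. Of all genes 19.5% were called with RepSox in SW620 and 40.4% with DOX in DMSO. In HT-29 iZEB1, 52.2% were called with RepSox in the presence of DOX and 25.3% with RepSox without it.

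Whether RepSox acted differently in SW620 than in HT-29 iZEB1 without DOX was tested in all 18 libraries. The difference was called for 3 of the 10 genes, 2 higher and 1 lower in SW620, where 10.4% of 19107 genes were called, 5.39% as higher and 4.99% as lower. The response of CDKN2B was higher in SW620 by 0.61 on the log2 scale (SE 0.10, adjusted p = 0.000176), its change being 0.09 in SW620 and -0.53 in HT-29 iZEB1. That of CCND1 was higher by 0.29 (SE 0.066, adjusted p = 0.00412), and both calls were kept in each of 12 fits that left out 1 library. That of CDKN1B was -0.31 (SE 0.095, adjusted p = 0.0385), and its call was kept in 2 of those 12 fits and lost with no filter (0.0721). CDK6 did not pass (difference 0.33, 95% interval 0.08 to 0.57, adjusted p = 0.0968), but was called with no filter (0.0122) and without replicate 3 of SW620 with DMSO (0.0318). CDKN2D (0.37, 95% interval 0.04 to 0.71, adjusted p = 0.185) and CDKN1A (0.57, 95% interval -0.08 to 1.23) did not pass either. The differences of the last 4 genes were 0.22 for CCND3 (95% interval -0.04 to 0.49), 0.15 for CDKN2C (-0.17 to 0.46), 0.07 for CDKN1C (-0.29 to 0.44) and -0.14 for CCNE1 (-0.40 to 0.12), none called.

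The lines themselves differed in most of the 10 genes in DMSO. In SW620 against HT-29 iZEB1 with DMSO alone 4 genes were higher and 5 lower, where 76.6% of 19107 genes were called, 40.1% as higher and 36.5% as lower, so a call is common here. Without regard to the test, groups stood apart in 41.6% of all genes as higher and 37.4% as lower. CCNE1 had 8.04, 6.63 and 6.44 CPM in SW620, against 31.8, 30.8 and 31.1 CPM in HT-29 iZEB1 (4.44-fold lower, log2 -2.15, SE 0.095, adjusted p = 1.66e-16). CDKN1A had 1.56, 1.36 and 1.51 CPM, against 5.44, 4.5 and 5.32 CPM (3.44-fold lower, log2 -1.78, SE 0.22, adjusted p = 8.05e-08). CDKN1B was 1.86-fold and CDKN2D 1.37-fold lower in SW620 (adjusted p = 7.85e-12 and 0.00126).

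CCND1 had 456, 461 and 481 CPM in SW620, against 159, 153 and 156 CPM in HT-29 iZEB1 (2.99-fold higher, log2 1.58, SE 0.047, adjusted p = 5.37e-20). CDKN2B had 38.7, 39.5 and 40.5 CPM, against 14.1, 14.1 and 12.9 CPM (2.89-fold higher, log2 1.53, SE 0.072, adjusted p = 4.89e-16). CDK6 was 1.74-fold and CDKN2C 1.61-fold higher in SW620 (adjusted p = 8.69e-09 and 3.48e-06). Scaling by library totals moved the median log2 difference of all genes to 0.18, against 0.06 with TMM scaling. Under it the lower call of CDKN1C (log2 -0.33, SE 0.14, adjusted p = 0.0308) was lost (0.176), and CCND3 (log2 0.18, SE 0.095, adjusted p = 0.0955) was called as higher (0.0046). The CDKN1C call was also lost without replicate 1 of HT-29 iZEB1 (0.101) or replicate 2 of SW620 (0.0928). Among the pathway genes, RB1, the retinoblastoma gene, had 33.7 ± 4.1 CPM in SW620 and 119 ± 4.0 CPM in HT-29 iZEB1 (3.53-fold lower), and SMAD4, which carries TGF-β signals to the nucleus, 0.584 ± 0.24 and 13.1 ± 0.99 CPM in the same order (22.2-fold lower, SD, n = 3 each).

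Genes with the most similar pattern are given for the 3 members with the widest range of group means, CCND1, CDKN1C and CCNE1. Likeness was the mean absolute difference in log2 CPM over the 18 libraries after each gene was centred on its mean, among 10958 genes with a mean of at least 5 CPM. For CCND1 the nearest were C1orf198 (0.081) and POLA1 (0.10), and for CCNE1 SLC7A1 (0.11) and CYB5A (0.12). For CDKN1C they were FILIP1L (0.21) and TMCC1-AS1 (0.22), which are farther from it than the neighbours of CCND1 and CCNE1 are from theirs.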

How the data were processed

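Total RNA libraries of 18 samples were sequenced on a BGISEQ-500 after mRNA purification, per the labels' protocols. The deposited table holds raw counts per gene symbol for 60642 symbols, from 36.5 to 39.8 M per library. The submitters' processing notes name the tools FastQC (version 0.11.9), HISAT2 (version 2.2.0), featureCounts (version 2.0.0) and DESeq2 (version 1.34.0), and the build GRCh38.p13. For these tools the settings, strand and annotation were not given in the sources used here.

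Counts were tested with edgeR 4.0.16 (R 4.3.3): TMM scaling, filterByExpr (minimum count 10), a quasi-likelihood fit by group (glmQLFit, glmQLFTest) and, across every gene in a fit, Benjamini-Hochberg adjustment, with 0.05 as the threshold for a call. Separate fits took the 12 HT-29 iZEB1 libraries (16978 genes), the 6 SW620 libraries (17147 genes) and all 18 (19107 genes, for comparisons of the lines). The code was tested on simulated data. Standard errors are the unshrunken log2 fold change over the root of F, and 95% intervals are the normal ones from them. CPM use TMM factors of all 18 libraries. Intervals cover counting error and the spread between libraries only. Every pair of replicates was farther apart than counting error (3.93 to 42.6 chi-square units per degree of freedom). This does not show that they are separate cultures, which is not given. Each library was taken as its own sample. Replicate 2 of DOX and DMSO was the farthest from others of its group, at 32.6 units from replicate 1 and 42.6 from replicate 3. Replicates 1 and 3 of that group were 8.95 units apart.

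Alternatives were DESeq2 1.42.0, library totals, no filter, a replicate block, all 18 libraries and leaving out each library. The members and lists were chosen with earlier results of these data known. All 10 members are described in every comparison, ZEB1 is given as a check of induction, and up to 3 called genes with the largest change are named for each list. The genes most like CDKN2B are not reported here. Gene positions and exon lengths are from GENCODE 29, in which all 10 symbols matched, and promoters from RefSeq.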

Additional observations from a re-analysis of the deposited data

Results flagged for a closer look

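The change with DOX differed between RepSox and DMSO in HT-29 iZEB1 for 3 of the 10 genes, by a test of the difference itself. Over all genes 22.6% were called in that test. The differences, as log2 in RepSox minus DMSO, were -2.0 for CDKN1C, 0.46 for CCND1 and 0.63 for CCNE1.

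The change with RepSox differed between SW620 and HT-29 iZEB1 without DOX for 3 of the 10 genes, by a test of the difference itself. As log2 in SW620 minus HT-29 iZEB1 these were 0.61 for CDKN2B, 0.29 for CCND1 and -0.31 for CDKN1B, the last a call that most fits without 1 library lost. Over all genes 10.4% were called for this difference.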

How the results depend on the processing

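Of 1090 recomputed values of single genes, 1008 kept their direction and their side of the threshold, 51 were no longer called, 14 became called and 17 changed sign. None of the genes called in the results changed sign. Those that did lay near 0. Over the fits that left out 1 library their log2 ranges were -0.15 to 0.017 for CDK6 with RepSox in the presence of DOX and -0.078 to 0.068 for CDK6 with RepSox alone. For DOX in RepSox they were -0.063 to 0.030 (CDKN2B), -0.0056 to 0.23 (CDKN2C) and -0.15 to 0.0069 (CDKN2D). For the interaction they were -0.051 to 0.14 (CDKN2D) and -0.14 to 0.034 (CDK6), and for the difference between lines -0.031 to 0.24 (CDKN1C). The interaction of CDKN2D was also -0.0037 with library totals.

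For DOX in RepSox, 81 genes were called, 293 with DESeq2, 584 with no filter and 162 in the fit to all 18 libraries, and 27 to 1670 when 1 library was left out, the most without replicate 1 of DOX and RepSox. Of the 10 genes 1 was called with no filter in place of 0, and 0 to 1 when 1 library was left out. For RepSox in SW620, 3338 genes were called and 2019 in the fit to all 18 libraries. Leaving out 1 library gave 4 to 7 called members there and 4 to 6 for RepSox without DOX. With library totals the share of higher calls was 59.5% in place of 47.6% for DOX in DMSO, 39.5% in place of 52.5% for RepSox in SW620 and 47.0% in place of 57.4% for the interaction.

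Replicate numbers did not pair the libraries: correlations of same-numbered deviations ran from -0.13 to 0.09 in HT-29 iZEB1 and -0.05 to 0.01 in SW620. With the replicate block 6955 genes were called for DOX in DMSO (6853 without it) and 2848 for RepSox in SW620, and the number of called members was 5 in place of 7 in SW620 and as given in the other comparisons.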

Other observations

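Genes that turn over CDK inhibitors and cyclins (ubiquitin ligase subunits and their partners) were counted as well. Of 17 tested genes 1 was higher and 9 lower with DOX in DMSO, where 40.4% of all genes were called, and 10 higher and 1 lower with RepSox in the presence of DOX, where 52.2% were. With RepSox alone 2 were higher and 1 lower (25.3% of all genes called), and with RepSox in SW620 2 higher and 2 lower (19.5%), counts near or below those shares. DTL, which marks CDKN1A protein and other substrates for degradation in S phase, had 37.0 ± 1.4 CPM with DOX and DMSO and 71.3 ± 2.3 CPM with DMSO alone, and 74.4 ± 4.3 CPM with DOX and RepSox (SD, n = 3 each).

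Other cell types' markers were seen at low levels. The summed level of 9 fibroblast markers was at most 1.47 CPM in each HT-29 iZEB1 library and 7.28 to 13.3 CPM in SW620, where LUM was the highest. Of 10 leukocyte markers 1 reached 1 CPM in each group, CD14 in HT-29 iZEB1 and LAPTM5 in SW620. The endothelial list held TEK at 9.72 CPM with DOX and DMSO, 8.26 CPM with DOX and RepSox and 8.34 CPM with RepSox alone, against 2.34 CPM with DMSO alone.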
